A study of Mus musculus with 5 samples.

Results

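The cells described here are limb cells of the mouse embryo that carried at least 2 UMIs (unique molecular identifiers, each counted as 1 mRNA molecule) of *Gdf5*, the growth factor gene that marks forming joints, and no UMI of *Ihh* or *Col10a1*, genes of maturing growth cartilage. A cell was kept when it had between 100 and 9000 detected genes, at most 10% of its UMIs from mitochondrial genes, and a ratio of log10 genes to log10 UMIs of at least 0.8. The rule found 561 such cells among 42562 kept limb cells, 209 of 22057 in the forelimb and 352 of 20505 in the hindlimb. They are called *Gdf5* cells below. Because *Gdf5*, *Ihh* and *Col10a1* chose the cells, their values are description and were not tested. *Egfem1*, *Btc* and *Sox5* came with the rule as further markers, from earlier results of the same libraries, and are likewise described without a test.

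Joints form within continuous cartilage condensations, where a band of flattened cells, the interzone, stops making the cartilage matrix and begins to express *Gdf5*. Descendants of these cells form articular cartilage, ligament and synovium. GDF5 is a secreted ligand of the bone morphogenetic protein (BMP) family, which signals mainly through the receptor BMPR1B and is held in check by the extracellular antagonist Noggin.

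The series comprised single-cell RNA libraries from mice, 3 from the penis at postnatal day 6, 1 from the forelimb and 1 from the hindlimb at embryonic day 15, all untreated and, in the study's methods, male. The 5 libraries held 84440 cell barcodes. The labels give the strain as C57BL/6N and the study's text as C57BL/6J. The study's methods give 6 embryos for its limb samples, without separating single-cell from ChIP-seq samples. How many entered the limb libraries, and how they were divided between them, is not given in the sources used here. Both libraries may hold cells of the same embryos, so a spread between them may be technical. The study made them to set the cells of the baculum, the penis bone, beside those of limb bones. The limb libraries summed to 156060382 UMIs in 28266 forelimb barcodes and 162335993 UMIs in 25937 hindlimb barcodes. The *Gdf5* cells summed to 1563958 and 2776056 UMIs. Their median depth was 4754 UMIs in the forelimb and 5026 in the hindlimb, against 5362.5 and 6069 in the other kept cells. The limb libraries shared 203 barcodes, 124 of them among kept cells, but no *Gdf5* cell's barcode was shared. Limb genes followed the labels, as given below.

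*Gdf5* (ENSMUSG00000038259, mm10 chr2:155941023-155945367, minus strand) was sparse. Of its 1072 UMIs in kept forelimb cells the *Gdf5* cells held 648, and of 1800 in the hindlimb they held 1221. The median *Gdf5* cell had 2 UMIs in the forelimb (maximum 18) and 3 in the hindlimb (maximum 55). At the limit itself, 111 forelimb and 162 hindlimb cells had exactly 2 UMIs, and 392 and 527 kept cells just outside had 1. Most cells therefore sat close to the limit, and only 3 and 7 reached 10 UMIs. A further 6 and 9 cells reached 2 UMIs of *Gdf5* but carried *Ihh* or *Col10a1* and were left out.

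**Figure D1:**
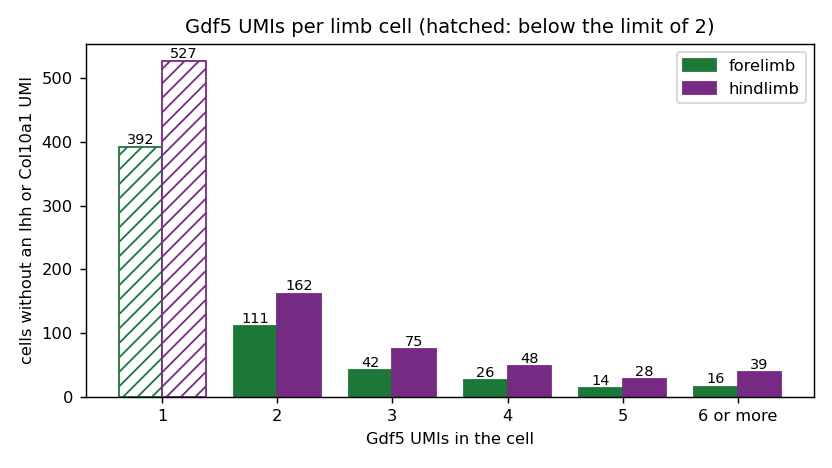
Number of kept limb cells (vertical axis) by their UMIs of *Gdf5* (horizontal axis), for the forelimb and hindlimb libraries, with cells of 1 UMI, just below the limit, hatched. The 392 forelimb and 527 hindlimb cells with 1 UMI outnumbered all *Gdf5* cells of the same library, 209 and 352.

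*Gdf5* cells were 0.948% of kept forelimb cells (95% exact binomial interval 0.824 to 1.08%) and 1.72% of hindlimb cells (1.54 to 1.90%). These intervals cover counting error only, and 1 library per limb gives no test. Thinning every cell to 2000 UMIs, which left 19568 and 18870 cells deep enough, gave 0.373% and 0.659%. The hindlimb share was the higher one at each depth. With a limit of 1 UMI the shares were 2.72% and 4.29%, and with 3 UMIs 0.444% and 0.927%. As a background, cells with 2 or more *Gdf5* UMIs among muscle cells, which should lack the gene, were 0.174% of 1729 in the forelimb and 0.221% of 1360 in the hindlimb, although those cells were deeper (medians of 8986 and 10241 UMIs). Among Schwann cells they were 0 of 188 and 0 of 141, with upper interval bounds of 1.94% and 2.58%. Red blood cells of the hindlimb stood higher, at 1.92% (0.707 to 4.13%, 6 of 313 cells), which overlaps the share over all kept cells. In the forelimb, red blood cells stood at 0.651% (0.0790 to 2.33%), epidermal cells at 0.855% (0.104 to 3.05%), macrophages at 0.467% (0.172 to 1.01%) and endothelial cells at 0.205% (0.00519 to 1.14%), so each of these intervals reaches the forelimb share of *Gdf5* cells, and the epidermal value is near it. In the hindlimb, the latter 3 types stood at 0.373%, 0.530% and 0.726%. Cells were assigned to these types by detection of at least 3 genes of the type's marker list. Red blood cells were those with at least 2 UMIs of their marker *Alas2*.

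The 3 further markers differed in how many *Gdf5* cells carried them. *Sox5* (chr6:143828425-144781977, minus strand), a partner of SOX9 in chondrocyte differentiation, was detected in 90.0% and 85.5% of forelimb and hindlimb *Gdf5* cells, against 21.7% and 25.4% of other cells (78.0% and 74.5% against 14.9% and 17.4% with every cell thinned to 2000 UMIs). *Egfem1* (chr3:29082023-29691209, plus strand), which encodes an EGF-like domain protein, was detected in 52.6% and 34.9%, against 6.10% and 4.42%. *Btc* (chr5:91357261-91402994, minus strand), which encodes the EGF receptor ligand betacellulin, was detected in 29.7% and 30.1%, against 2.04% and 2.00%. All 3 were detected together in 38 of 209 forelimb and 53 of 352 hindlimb *Gdf5* cells, and none of them in 15 and 41. *Egfem1* was the marker that differed most between the limbs, with 596 and 205 CPM (the gene's UMIs scaled to a common total of all UMIs summed over the cells of a class in a library) in forelimb and hindlimb. *Btc* stood at 109 and 87.2 CPM and *Sox5* at 1237 and 1312 CPM, while the other limb cells held 37.8 and 20.3 of *Egfem1*, 4.69 and 4.08 of *Btc* and 158 and 196 of *Sox5*. The cells with *Btc* were nearly a subset of those with *Sox5*, which 60 of 62 forelimb and 103 of 106 hindlimb *Btc* cells carried, beside 188 and 301 *Sox5* cells in all. The label of joint progenitors was read against a list of interzone genes, described below with the genes that went against it.

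To ask what else set the *Gdf5* cells apart, their UMIs were summed per library and compared with the sums of all other kept limb cells by edgeR with the library as a block, and p-values were adjusted over all genes by the Benjamini-Hochberg method (BH). A gene was called at a BH-adjusted p under 0.01 and an absolute log2 fold-change over 1. Of 20886 genes tested, 557 were called higher (2.67%) and 1009 lower (4.83%), together 7.5%. By default edgeR gave no weight in this fit to a gene's own spread between the libraries, so its p and standard error can be too small. Of these calls, 370 higher (1.77%) and 339 lower (1.62%) held under all 4 settings of that spread, 3 of which were added after the results were seen. Below, the first adjusted p is the default and the second is the setting that weighs each gene's own spread and is robust to outlying genes. The median log2 fold-change of all genes was -0.10, and every value below is relative to the other limb cells unless another class is named.

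Among called genes with at least 20 CPM, the highest fold-change tested was that of *Col22a1* (chr15:71795795-72034227, minus strand), which encodes a collagen of tissue junctions. It stood at 78.6 and 96.9 CPM in forelimb and hindlimb *Gdf5* cells and 4.26 and 4.36 CPM in other cells (log2 fold-change 4.25, standard error 0.17, edgeR adjusted p = 5.5e-138 and 5.7e-05 by BH). Both libraries of *Gdf5* cells lay far above both sums of other cells, and the transcript was detected in 27.3% and 26.1% of *Gdf5* cells. *Pkhd1* (chr1:20057779-20618064, minus strand), which encodes the ciliary membrane protein fibrocystin, stood at 48.6 and 52.6 against 3.03 and 3.34 CPM (log2 fold-change 3.89). The homeobox gene *Barx2* (chr9:31846044-31913462, minus strand) stood at 85.0 and 73.5 against 5.07 and 5.50 CPM (3.80). *Hs3st3a1*, which encodes a heparan sulfate sulfotransferase, was at 154 and 179.8 against 14.5 and 14.5 CPM (3.43). All of these were called under each spread setting, and the second adjusted p of *Pkhd1*, *Barx2* and *Hs3st3a1* by edgeR (BH) was 9.0e-05, 9.0e-05 and 5.7e-05. In either library the *Gdf5* cells were the higher class, which the choice of named genes required.

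Other genes among the highest fold-changes tested were *C2cd4b*, *Ralyl*, *Schip1*, *Stac*, *Cntnap2* and *Bmp6*. *Bmp6*, a BMP ligand, stood at 159.9 and 129.7 against 19.0 and 16.6 CPM (2.92), *C2cd4b* at 35.8 and 64.8 against 3.68 and 4.49 CPM (3.52), and *Stac*, which encodes an adaptor protein, at 36.4 and 55.1 against 4.02 and 5.55 CPM (3.16). The libraries were less alike for the other 3 genes. *Schip1* was at 707 and 305 against 37.8 and 44.9 CPM (3.40), and its call was lost when its own spread was weighed (edgeR BH-adjusted p = 0.029). *Cntnap2*, a neurexin-family adhesion gene, was at 22.4 and 130.4 CPM and lost its call as well, with 20 of its 35 forelimb and 162 of its 362 hindlimb UMIs in 1 cell each. *Ralyl*, an RNA-binding protein gene, kept its call at 33.2 and 86.5 CPM (3.50), but 36 of its 52 forelimb UMIs came from 1 cell. The sums of *Cntnap2* and *Ralyl* thus rested in part on single cells, unlike that of *Barx2*, which was detected in 28.7% and 25.6% of *Gdf5* cells and in 18 of 31 forelimb and 33 of 56 hindlimb *Gdf5* cells with *Pkhd1*.

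**Figure D2:**
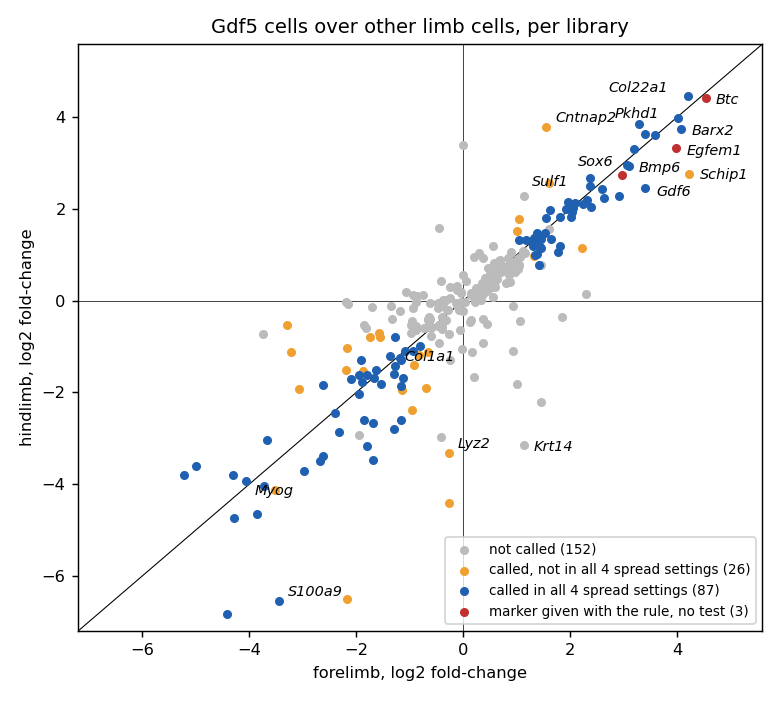
Log2 fold-change of *Gdf5* cells over other limb cells in the forelimb library (horizontal axis) and the hindlimb library (vertical axis), 1 point per gene of the gene lists or named in the text. Blue points (87) were called by edgeR under all 4 spread settings, orange points (26) were called by default but not under all 4, grey points (152) were not called, and red points are the 3 markers given with the rule, which were not tested. Points near the diagonal, such as *Col22a1* and *Barx2*, changed alike in both libraries, and *Schip1* and *Cntnap2* lie away from it.

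The genes named by the rule as lower included genes of neutrophils and muscle. They were at or near 0 in *Gdf5* cells, so the sizes of their fold-changes are imprecise and their order is not read. *Stfa1*, *S100a9* and *S100a8*, expressed in neutrophils, had 1, 5 and 2 UMIs in forelimb and 0, 1 and 3 in hindlimb *Gdf5* cells. For *Stfa1* that is 0.639 CPM in the forelimb (exact Poisson interval 0.0162 to 3.56) and at most 1.33 CPM in the hindlimb, against 20.6 and 20.7 CPM in other cells. *S100a8* stood at 1.28 CPM (0.155 to 4.62) and 1.08 CPM (0.223 to 3.16) against 31.2 and 33.9 CPM. *Mymx*, *Tnnt2* and *Myog*, which act in muscle fusion, contraction and differentiation, had 1, 7 and 10 forelimb and 5, 5 and 14 hindlimb UMIs (log2 fold-changes -4.56, -4.46 and -4.15). *Asprv1* and *Arpp21* had 1 and 2 forelimb and 6 and 5 hindlimb UMIs. *Myog* stood at 6.39 and 5.04 CPM in *Gdf5* cells and 113 and 79.4 CPM in other cells. The other limb cells are a mixture that includes the limb's muscle, blood and skin cells.

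Marker lists of other cell types were mostly lower too, with exceptions in blood and skin. All 6 muscle genes were lower (5 under every spread setting), and their summed level was 48.6 and 39.6 CPM in forelimb and hindlimb *Gdf5* cells against 541 and 431. For endothelium 5 of 6 genes were lower (3 under every setting), at 122 and 80.0 against 230.3 and 221 CPM, with *Cldn5* at 0 in the hindlimb *Gdf5* cells. For macrophages 5 of 5 were lower (4), at 221 and 105 against 423 and 387 CPM, and for Schwann cells 2 of 5 (1), at 10.2 and 18.4 against 35.1 and 33.0 CPM, with *Foxd3* at 0 in both. Red blood cell genes were not called, 0 of 4, and their sum, mainly globin, was 2135 and 4394 CPM in *Gdf5* cells and 3878 and 4068 in other cells. Of the epidermal genes 2 of 5 were lower (1), but the forelimb *Gdf5* cells held 108 CPM against 103 in other cells, and the hindlimb 23.1 against 98.1. Globin was unevenly spread over the *Gdf5* cells, and 77 of them, cluster 5 of the clusters given below, held 3329 *Hba-a1* UMIs against 1930 in the other 484. Without the *Gdf5* cells that carried markers of another type, 4 of 4 red blood cell and 4 of 5 epidermal genes were lower. That alternative removes cells by these same markers. Keratin UMIs of the forelimb came mostly from 1 cell, which held 54 of 61 for *Krt14*. Scrublet marked 10 forelimb and 12 hindlimb *Gdf5* cells as doublets (741 and 394 of all kept cells, 3.36% and 1.92%). Of the *Gdf5* cells, 44 and 66 carried at least 2 UMIs of a marker of another type (10 of a globin gene). Leaving out doublets gave 583 higher and 1139 lower genes, and leaving out cells with other-type markers gave 573 and 1135.

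Genes of the joint interzone were among the higher ones. Of 18 in the list 9 were called higher and 1 lower (8 and 1 under every spread setting), with a median log2 fold-change of 1.09 against -0.10 for all genes. The list's summed level was 6255 and 6349 CPM in forelimb and hindlimb *Gdf5* cells and 5040 and 4975 CPM in other cells. *Sulf1*, which encodes an extracellular sulfatase acting on heparan sulfate, stood at 791 and 1020.1 CPM in forelimb and hindlimb *Gdf5* cells and 154 and 181 in other cells (log2 fold-change 2.33, standard error 0.08, edgeR adjusted p = 1.8e-199 and 5.7e-05 by BH). *Dcx*, a microtubule-associated protein gene, had a log2 fold-change of 2.49. *Enpp2*, the gene of the lysophosphatidic acid producing enzyme autotaxin, was at 141 and 212 against 27.5 and 33.2 CPM (2.44), and the transcription factor gene *Trps1* at 1666 and 1565 against 439 and 394 CPM (1.86). *Erg*, an ETS factor of articular chondrocytes, was at 239.8 and 309 against 92.6 and 111 CPM (1.33). These genes were higher in both libraries and held under every setting, as did *Barx1* (1.71), *Wnt4* (1.30) and *Osr1* (1.19), while *Sfrp2* (1.55) did not. *Col3a1*, the gene of the fibrillar collagen III, was the lower gene (-1.19). *Wnt9a*, often used as an interzone marker, did not pass, at 20.5 and 16.2 against 11.4 and 10.2 CPM (log2 fold-change 0.65, edgeR BH-adjusted p = 0.014 and 0.049), nor did *Cd44* (-0.92), the hyaluronan receptor gene, or *Osr2* (0.99), whose folds missed the limit.

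Genes of mature articular cartilage and synovium were mixed. Of 17 such genes 5 were higher and 3 lower (3 and 2 under every setting), with a median of -0.24. *Creb5*, a transcription factor gene of articular chondrocytes, was the broadest of them, detected in 94.7% and 96.0% of *Gdf5* cells and 54.7% and 59.7% of other cells, at 1531 and 1542 against 372 and 405 CPM (log2 fold-change 1.88, standard error 0.07, edgeR adjusted p = 2.2e-154 and 5.7e-05 by BH). It was high in either library, and so were *Dkk3* (2.07), a secreted DKK family protein, and the cadherin gene *Cdh11* (1.20). *Prg4*, which encodes the joint lubricant lubricin, stood at 10.2 and 15.1 CPM (2.06), but it was detected in 2.87% and 4.55% of *Gdf5* cells, 10 of 16 forelimb and 22 of 42 hindlimb UMIs lay in 1 cell each, and the call was lost under some spread settings. *Cilp* (1.34) also lost its call. *Abi3bp* (-1.80) and *Thy1* (-1.97), an extracellular matrix and a stromal surface gene, were lower under every setting, and *Thbs4* was lower by default.

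Within the BMP family the *Gdf5* cells differed from other cells in a few members rather than throughout. Of 8 ligand genes tested besides *Gdf5*, 3 were higher and none lower, all 3 under every setting, while the list's median was -0.07. *Gdf6*, a close relative of *Gdf5*, was at 26.9 and 13.7 against 2.56 and 2.53 CPM (2.81) and was higher in both libraries, more so in the forelimb. *Bmp2* was at 71.6 and 71.7 CPM (1.18), and *Bmp6* is given above. *Bmp4* (0.02), *Bmp7* (-0.26) and *Gdf10* (-0.17) were not called, and *Gdf7* had no UMI in *Gdf5* cells and was not tested. Of 11 receptor and SMAD genes 1 was higher, the type I receptor gene *Bmpr1b*, at 350.4 and 514 against 119 and 147 CPM (log2 fold-change 1.59, standard error 0.08, edgeR adjusted p = 1.5e-81 and 3.4e-04 by BH). The more widely used receptor genes *Bmpr1a* (0.38) and *Bmpr2* (0.41) did not reach the fold limit. Antagonists moved both ways. *Chrdl1*, a chordin-like antagonist, was higher (1.96), and *Nog*, the gene of Noggin, was higher by default but not under every setting (1.22, edgeR BH-adjusted p = 1.4e-08 and 0.0076), whereas *Fst* (-1.79), the follistatin gene, was lower under every setting. Of 8 target genes the homeobox genes *Msx1* (1.11) and *Msx2* (1.80) were higher, 33 of the 88 forelimb *Msx1* UMIs lying in 1 cell, and the inhibitor of differentiation genes *Id1* (0.15) and *Id3* (0.27) were not called. Both *Msx* calls were lost with every cell thinned to 2000 UMIs (0.72 and 0.74), where 0 of 8 target genes were higher, and that of *Msx1* also with a limit of 3 *Gdf5* UMIs (0.72).

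Hedgehog signalling and PTHrP together pace cartilage growth. Of 13 genes tested in that list 6 were higher and none lower, all 6 under every setting, with a median of 0.90. *Ihh* is outside that count because it chose the cells. Against the cartilage cells defined below, 3 of the 13 were higher and none lower, with a median of -0.03. These were *Cdon*, *Gli3* and *Gas1*, while *Pthlh*, *Hhip* and *Gli2* were not called there. The transcription factor gene *Gli3* was at 812 and 959 against 196 and 235 CPM (log2 fold-change 1.94, standard error 0.07, edgeR adjusted p = 2.9e-143 and 5.7e-05 by BH), and the co-receptor gene *Cdon* at 524 and 558 against 149 and 158 CPM (1.72). *Pthlh*, the gene of the ligand PTHrP that delays chondrocyte hypertrophy, was at 28.8 and 23.4 against 5.81 and 5.17 CPM (2.14). In both libraries these 3 genes were higher in *Gdf5* cells, as were *Hhip* (2.11), *Gli2* (1.29) and *Gas1* (1.07). *Hhip*, *Ptch1* and *Gli1* are transcriptional targets of the pathway, and of these *Hhip* was called as given, while *Ptch1* (0.90) and *Gli1* (0.02) and the PTHrP receptor gene *Pth1r* (-0.72) were not called.

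Of 12 Wnt ligand genes 2 were higher and 1 lower, each under every setting, with a median of 0.45. *Wnt5a*, a ligand of non-canonical signalling, was at 218 and 224 against 97.1 and 89.7 CPM (1.15), *Wnt4* is given above, and *Wnt2* was lower (-2.40). Of 18 Wnt modulator and target genes 2 were higher (*Dkk3* and *Sfrp2*) and 6 lower, which fell to 1 and 1 under every setting. These last counts are near the shares over all genes under every setting, 1.77% higher and 1.62% lower. With cells thinned to 2000 UMIs 2 genes of the list were higher and 2 lower. The lower gene that remained was *Rspo3* (-1.14), an enhancer of canonical Wnt signalling, and *Axin2*, a target of that signalling, was not called (-0.31). Among 13 EGF family genes other than *Btc*, 2 receptor genes were higher. *Erbb4* was at 437 and 510.4 CPM in *Gdf5* cells, against 72.8 and 94.99 CPM in other cells (log2 fold-change 2.40, standard error 0.08, edgeR adjusted p = 1.5e-177 and 5.7e-05 by BH) and *Egfr*, the receptor gene for betacellulin along with *Erbb4*, at 247 and 177 against 79.1 and 69.9 CPM (1.39). Both receptors were higher in either library, while the neuregulin gene *Nrg1* was lower (-1.56) and *Nrg3* was lower by default. Of 10 TGF-beta genes the latent binding protein genes *Ltbp1* (1.39) and *Ltbp3* (1.18) were higher and *Tgfb1* (-1.03) lower, all under every setting.

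The *Gdf5* cells carried the transcription factors of cartilage but less of its matrix, and this was examined against classes of limb cells chosen by other genes. Cartilage cells had at least 2 UMIs of the aggrecan gene *Acan* and none of *Tnmd* (979 forelimb and 1180 hindlimb cells). Tendon cells had at least 2 UMIs of the tenomodulin gene *Tnmd* and none of *Acan* (543 and 419). Mesenchyme cells had both *Pdgfra* and *Prrx1* and neither of the former (5705 and 5243). No cell of these classes carried *Gdf5*, *Ihh* or *Col10a1*, and their median depth was 5251 and 6252.5 UMIs (cartilage), 6240.0 and 6751 (tendon) and 6206 and 6786 (mesenchyme), all above the 4754 and 5026 of the *Gdf5* cells. One edgeR fit of the 8 sums over 15306 genes gave the 3 contrasts, and here each gene's own spread carried weight by default.

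Against cartilage cells 539 genes were called higher (3.52%) and 391 lower (2.55%), together 6.08%, of which 469 (3.06%) and 369 (2.41%) held under every spread setting. SOX genes were close in both classes. *Sox9*, the chief chondrocyte transcription factor, stood at 526 and 589.7 CPM in forelimb and hindlimb *Gdf5* cells and 528 and 672 CPM in cartilage cells (log2 fold-change -0.23, standard error 0.08, edgeR adjusted p = 0.06 and 0.048 by BH). *Sox6*, its partner along with *Sox5*, stood at 1061 and 1430.5 and 803 and 1159 CPM (log2 fold-change 0.23, standard error 0.07), and *Sox5*, described only, at 1237 and 1312 and 975 and 1109 CPM. *Erg* was at 239.8 and 309 and 199 and 250.3 CPM (0.16, standard error 0.10). None of the tested genes was called. *Sox5*, *Sox6* and *Erg* were the higher in *Gdf5* cells of both libraries, and *Sox9* in neither.

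Matrix genes were far apart in level. *Col2a1*, the gene of collagen II, stood at 759 and 945 CPM in *Gdf5* cells and 6644 and 6544 CPM in cartilage cells (log2 fold-change -3.09, standard error 0.09, edgeR adjusted p = 3.0e-08 and 7.2e-08 by BH), and *Matn1*, the gene of the cartilage matrix protein matrilin-1, at 35.2 and 40.7 against 733 and 821 CPM (-4.49). The difference also showed in the cells with a UMI. *Matn1* was detected in 4.78% and 7.10% of *Gdf5* cells and 50.9% and 61.4% of cartilage cells, and *Col2a1* in 73.2% and 75.3% and 95.2% and 95.8%. Thinned to 2000 UMIs, which left out 13 and 9 *Gdf5* cells and 67 and 37 cartilage cells, *Matn1* was in 3.64% and 4.33% against 40.4% and 50.0% and *Col2a1* in 51.9% and 57.9% against 90.9% and 91.7%. These sums were carried in part by few cells. In cluster 6 of the clusters given below, 28 *Gdf5* cells held 42 of the 55 forelimb and 94 of the 113 hindlimb UMIs of *Matn1*, and 444 of 1187 and 1075 of 2624 UMIs of *Col2a1*. In the other *Gdf5* cells *Matn1* stood at 8.69 and 7.504 CPM and *Col2a1* at 497 and 612 CPM. Of 8 chondrocyte marker genes other than *Sox5* and *Acan* 7 were lower and none higher, with a median of -2.79. Of 14 growth cartilage genes 12 were lower, with a median of -3.15, against -0.0014 for all genes. All 19 calls held under every setting. By the naming rule, among called genes with at least 20 CPM in the higher class of each library, the lowest were *Ucma* (-5.31), *Matn1*, *Susd5* (-4.27), *Epyc* (-4.18), *Snorc* (-4.01) and, by default only, *Pantr1* (-3.99). The cartilage class was chosen by a matrix gene, so what comes with choosing *Acan*-rich cells cannot be told apart from a difference between cell types. Compared with all other limb cells, *Sox9* (2.33) and *Sox6* (2.91) were higher in *Gdf5* cells, while *Col2a1* (0.45) was not called. In that comparison 3 of 9 chondrocyte markers other than *Sox5* were higher and none lower, *Mia* (1.40) and *Matn4* (1.09) besides *Sox6*, with a median of 0.65. Of 14 growth cartilage genes *Sox9* and *Scrg1* (2.02) were higher and *Ucma* lower by default, with a median of -0.19.

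Interzone and Wnt ligand genes were among those higher than in cartilage cells. Of 18 interzone genes 8 were higher and none lower (6 under every setting), and of 9 Wnt ligands 6 were higher (5). The interzone genes *Trps1*, *Erg* and *Barx1* were not called. Against tendon cells 2 of those Wnt ligands were higher and 1 lower (1 and 1), and against mesenchyme cells 1 was higher and 1 lower (0 and 1). Over all genes tested 3.65% were higher and 3.14% lower against tendon cells, and 3.74% and 3.27% against mesenchyme cells. With 9 ligands tested, these small counts are not read as a result about the ligands. Of the interzone genes 10 were higher and 1 lower (7 and 1) against tendon and 8 and 2 (6 and 2) against mesenchyme cells. Their summed level was 6255 and 6349 CPM in *Gdf5* cells of forelimb and hindlimb. It was 3769 and 3662 CPM in cartilage, 6164 and 5618 in tendon and 6227 and 6396 in mesenchyme cells. The sum in *Gdf5* cells was thus near that in mesenchyme cells. The values that follow are against cartilage cells. *Gdf6* stood at 26.9 and 13.7 against 1.21 and 1.01 CPM (3.99), *Wnt5a* at 218 and 224 against 62.4 and 45.2 CPM (1.94), and *Wnt9a*, which missed the limit against all other cells, at 20.5 and 16.2 against 8.59 and 5.92 CPM (log2 fold-change 1.22, standard error 0.22, edgeR adjusted p = 0.0024 and 0.0025 by BH). *Creb5* (2.19), *Sulf1* (2.58), *Osr1* (2.40), *Cdon* (1.94) and *Gas1* (2.08) were higher in both libraries and under every setting. By the naming rule the highest tested genes were *Col22a1* (4.05), *Ralyl* (4.01), *Nxph1* (3.93), *Cntnap2* (3.83) and *Dok6* (3.45), beside *Btc*, which is described only. The last pair of tested genes lost their calls under other spread settings, and 44 of 94 forelimb UMIs of the neurexophilin gene *Nxph1* came from 1 cell. *Bmpr1b* (0.09, edgeR BH-adjusted p = 0.7) and *Nog* (-0.54, 0.12) did not pass here. Nor were *Pthlh*, *Hhip*, *Gli2*, *Bmp2* and *Egfr* called, each of them higher against all other limb cells.

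**Figure D3:**
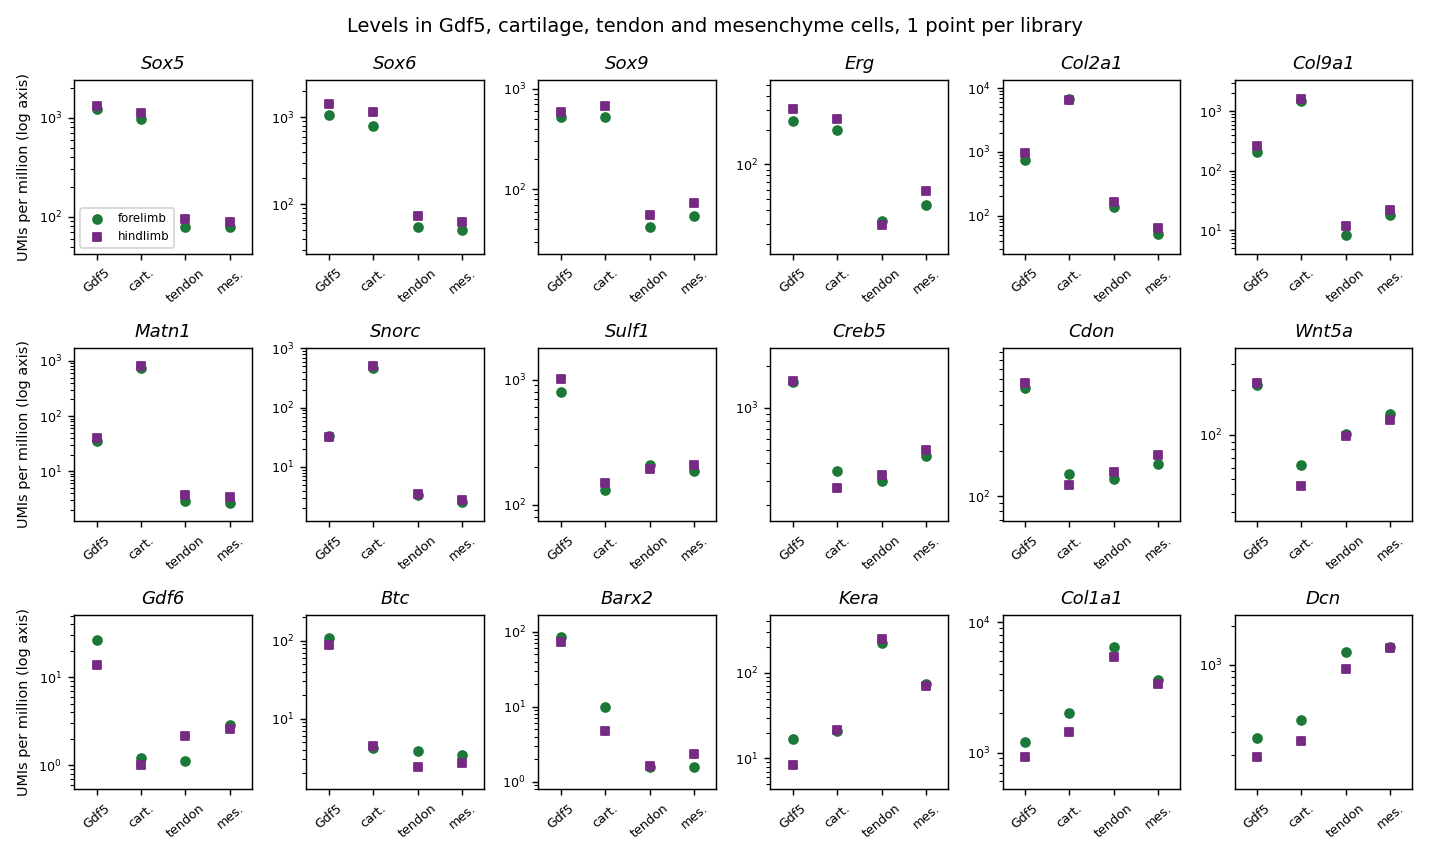
Level (CPM, log axis) of 18 genes in *Gdf5*, cartilage, tendon and mesenchyme cells, 1 point per library. For *Sox9* the *Gdf5* cells (526 and 589.7 CPM) and cartilage cells (528 and 672 CPM) lie together, whereas for *Col2a1* the *Gdf5* cells (759 and 945 CPM) lie below the cartilage cells (6644 and 6544 CPM) and above tendon (134 and 166 CPM) and mesenchyme cells (51.9 and 63.7 CPM).

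Against tendon cells 559 genes were higher (3.65%) and 481 lower (3.14%), together 6.79%, with 496 (3.24%) and 435 (2.84%) under every setting. Cartilage genes were here the higher ones. They were 7 of 8 chondrocyte markers other than *Sox5* and *Acan*, and 11 of 14 growth cartilage genes, with medians of 2.95 and 2.78. The tendon class excluded cells with *Acan*, which 71 of 209 forelimb and 139 of 352 hindlimb *Gdf5* cells carried. The choice of class thus bears on these counts. Of 10 tendon genes 8 were lower (6 under every setting), among them *Scx*, the tendon transcription factor gene, at 28.1 and 23.8 against 282 and 303 CPM (log2 fold-change -3.64, standard error 0.11, edgeR adjusted p = 6.2e-08 and 6.3e-09 by BH). The tendon class was chosen by the tendon gene *Tnmd*. What comes with choosing *Tnmd*-rich cells therefore cannot be told apart from a difference between cell types. *Kera* (-4.47), which encodes the proteoglycan keratocan, *Zfp185* (-5.72), *Ccdc85a* (-4.29), *Meox1* (-3.92), *Thbs4* (-3.87) and *Cdh18* (-3.81) were the lowest under the naming rule. The highest under it included *Barx2* (5.54), *Sorbs2*, a cytoskeletal adaptor gene at 425 and 516 against 8.68 and 17.6 CPM (5.09), its antisense transcript *Sorbs2os* (4.61), *Ralyl* (4.69) and *Cd74* (5.30). How the counting split reads between *Sorbs2* and *Sorbs2os* is not given in the sources used here, so both are uncertain, and *Cd74*, an immune gene, had 54 of 56 forelimb and 66 of 71 hindlimb UMIs in 1 cell each.

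Compared with all other limb cells, 1 of 11 tendon genes was higher, the homeobox gene *Mkx* (1.19), and 5 were lower, *Kera* (-2.37), *Tnmd* (-3.28), *Thbs2* (-1.79), *Col1a1* (-1.45) and *Col14a1* (-1.32), each under every setting.

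Mesenchyme cells differed at 573 higher (3.74%) and 501 lower genes (3.27%), together 7.02%, with 524 (3.42%) and 452 (2.95%) under every setting. All 8 chondrocyte markers other than *Sox5* and *Acan*, and 12 of 14 growth cartilage genes, were higher in *Gdf5* cells, *Pth1r* being the lower one. Here too the class excluded cells with *Acan*, so its choice bears on these counts. The 28 cartilage-rich cells of cluster 6 bear on them as well. By CPM, with no test, 8 of 8 chondrocyte markers and 12 of 14 growth cartilage genes were over 2-fold above mesenchyme cells in both libraries, and 7 and 8 without those cells. *Sox6* stood at 1061 and 1430.5 against 51.1 and 61.6 CPM (log2 fold-change 4.39, standard error 0.08, edgeR adjusted p = 7.5e-10 and 3.5e-11 by BH). Under the naming rule the highest tested genes were *Col22a1* (5.38), *Barx2* (5.26), the cartilage gene *Scrg1* (5.24) and *Pkhd1* (5.12), ahead of *Sox6*. The lowest under it were *Twist2* (-2.81), a transcription factor of dermal and limb mesenchyme, *Crabp1* (-2.80), *Kera* (-2.71), *Tmem132cos* (-2.67), *Mfap5* (-2.66) and *Dcn* (-2.66), the gene of the proteoglycan decorin at 270.5 and 191 against 1372 and 1359 CPM. In both libraries the level of *Col2a1* in *Gdf5* cells thus lay between those of the other classes. It was below the cartilage class, chosen by *Acan*, and above the tendon and mesenchyme classes, which excluded *Acan*.

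Genes of bone and of hypertrophic cartilage, the tissue of *Ihh* and *Col10a1*, were in part lower. Of 13 such genes 7 were lower than in all other limb cells (3 under every setting), with a median of -1.20, and *Mmp13* had no UMI in *Gdf5* cells. *Runx2*, the osteoblast transcription factor gene, was lower by default (-1.20, edgeR BH-adjusted p = 8.0e-13 and 0.015), and *Spp1*, the osteopontin gene, under every spread setting (-2.17). With cells thinned to 2000 UMIs 2 of 10 genes tested were lower, and the call of *Spp1* was lost. When the 15 cells with *Ihh* or *Col10a1* were kept, *Ibsp* and *Panx3* turned to log2 fold-changes of 0.23 and 0.34, so the rule bears on the values of these genes. Against cartilage, tendon and mesenchyme cells 4, 1 and 3 of 9 genes tested were lower (4, 0 and 1 under every setting) and none higher. The medians there were -1.98, 0.58 and -1.23.

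Position along the limb was next read from Hox and related genes. *Hoxa13* (1.24) and *Hoxd13* (1.14), genes of the hand and foot region, were higher in *Gdf5* cells than in other cells under every setting, with *Hoxd13* at 85.7 and 87.5 against 34.7 and 38.4 CPM. *Hoxd10* (1.03) was higher by default, and *Hoxd11* (0.99) missed the fold limit. Lower were *Shox2*, a gene of the proximal limb, at 19.8 and 29.5 against 85.9 and 96.7 CPM (log2 fold-change -1.95, standard error 0.14, edgeR adjusted p = 1.8e-44 and 7.5e-04 by BH), *Irx3* (-2.30), *Irx5* (-1.68) and, by default, *Meis1* (-1.16). In all, 3 of 14 position genes were higher and 4 lower (2 and 3 under every setting). With cells thinned to 2000 UMIs 1 was higher and 3 lower, and the call of *Hoxd13* was lost as its log2 fold-change of 0.97 missed the limit. Against cartilage cells 3 of the 14 were higher and 2 lower, and against tendon cells 2 and 2, with *Hoxa13* and *Hoxd13* higher in both contrasts. Against mesenchyme cells 0 of 14 were higher and 4 lower, so neither *Hoxa13* nor *Hoxd13* was called there. The libraries do not say which segments of the limb were taken, so the mix of joints is not known.

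*Gdf5* cells with *Hoxa13* (37 forelimb, 84 hindlimb) and with *Hoxa11* (11 and 30), a gene of the middle limb segment, shared 3 and 6 cells. Compared without these, *Hoxa13* cells (34 and 78) and *Hoxa11* cells (8 and 24) differed at 2 of 5764 genes tested (0.0347%), both lower, and none was higher. On counts simulated for this comparison edgeR made 2 false calls, as many as it made here. These counts had a fixed spread between libraries, below the common dispersion of 0.0418 that edgeR estimated here. The 2 numbers are therefore not directly comparable. At an unadjusted p under 0.05 there were 413 genes, 200 higher and 213 lower, and DESeq2 called 1 higher. *Matn1* had 1 and 6 UMIs in *Hoxa13* cells and 20 and 61 in *Hoxa11* cells (log2 fold-change -5.30, edgeR BH-adjusted p = 0.0011 and 0.0089). *C1qtnf3*, a cartilage-expressed secreted factor, had 4 and 2 UMIs against 30 and 35 (-5.21, with the same adjusted p). Both were higher in *Hoxa11* cells of either library, but the sums are of few cells. In the forelimb, 1 *Hoxa11* cell held all 20 UMIs of *Matn1* and 29 of the 30 of *C1qtnf3* lay in 1 cell, and in the hindlimb 4 of the 24 *Hoxa11* cells carried *Matn1* and 4 carried *C1qtnf3*.

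Forelimb and hindlimb *Gdf5* cells came from 1 library each and were not tested against each other. The intervals below are exact Poisson intervals for counting error at 95%. Among 10353 genes with at least 30 UMIs in both libraries together, 194 were more than 2-fold higher in the hindlimb and 122 in the forelimb. Limb identity genes led in both directions. *Pitx1*, the hindlimb transcription factor gene, was at 0.639 CPM (95% interval 0.0162 to 3.56) in the forelimb and 84.7 CPM (74.2 to 96.2) in the hindlimb, and *Tbx5*, the forelimb gene, at 145 CPM (95% interval 127 to 165) in the forelimb and 5.04 CPM (2.76 to 8.46) in the hindlimb. *Tbx4*, another hindlimb gene, stood at 7.03 and 55.5 CPM. *Hoxc10* had no UMI in forelimb *Gdf5* cells, which allows up to 2.36 CPM, and 18.4 CPM in the hindlimb, and *Hoxc8*, *Hoxc9* and *Hoxc11* were likewise at 0 in the forelimb. The other limb cells had the same order, with log2 ratios of hindlimb to forelimb of 6.04 for *Pitx1* and -4.16 for *Tbx5*, against 6.47 and -4.80 in *Gdf5* cells.

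Some other genes of large ratio rested on few cells. *Opcml*, a neural adhesion gene, was at 1.92 and 55.5 CPM in forelimb and hindlimb *Gdf5* cells, where no single hindlimb cell held most of it, and at 90.5 and 110.0 CPM in other cells. *Elavl2*, an RNA-binding protein gene, was at 0.639 and 11.9 CPM. For the rest 1 cell held much of the higher library, 78 of 107 hindlimb UMIs of *Cadps*, and in the forelimb 33 of 35 of *Ccl4*, 54 of 61 of *Krt14*, 26 of 32 of *Isg15*, 88 of 201 of *Ptprt* and 122 of 138 of *Lyz2*. *Tbx5* was the 1 gene of the 8 in the limb identity list called against all other cells (1.18), with 145 and 5.04 CPM in *Gdf5* cells and 54.5 and 3.05 CPM in others, and most of its UMIs were in the forelimb.

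The rule's limit was placed in the data by grouping kept cells without *Ihh* or *Col10a1* by their *Gdf5* UMIs. Cells with more *Gdf5* UMIs are not deeper in a regular way, with medians of 5363 UMIs at 0, 4386 at 1, 4166 at 2 and 6939.5 at 6 or more in the forelimb, and 6075.5, 5009, 5101.5 and 4772 in the hindlimb. *Sox5* stood at 139.6, 759, 1084 and 1757 CPM at 0, 1, 2 and 6 or more *Gdf5* UMIs in the forelimb, and at 171, 736, 1105 and 2213 in the hindlimb. For *Sox5*, cells just outside the limit, at 1 UMI, were between those at 0 and those at 2 in both libraries. Cartilage matrix genes had another order, and *Col2a1* stood at 425, 1411 and 720.4 CPM at 0, 1 and 2 *Gdf5* UMIs in the forelimb and 529, 1097 and 989 in the hindlimb. At 3, 4 to 5 and 6 or more UMIs it stood at 287, 1109.5 and 1295 CPM in the forelimb and 729, 908 and 1232 in the hindlimb, so its level did not follow the number of *Gdf5* UMIs in 1 direction. *Acan* and *Matn1* were likewise higher at 1 UMI than at 0 or 2 in both libraries, *Acan* in the hindlimb by little (167 against 165 CPM), where it reached 229 CPM at 6 or more. *Sox9* went from 341 and 361 CPM at 1 UMI to 453 and 549 at 2, and *Creb5* from 818 and 855 to 1289 and 1315. *Col1a1*, the collagen I gene of fibrous tissue and bone, took the other direction, from 2949 and 2540.2 CPM at 0 to 869 and 384 at 6 or more. The last group has 16 forelimb and 39 hindlimb cells, and these values are descriptions because the rule used *Gdf5*.

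**Figure D4:**
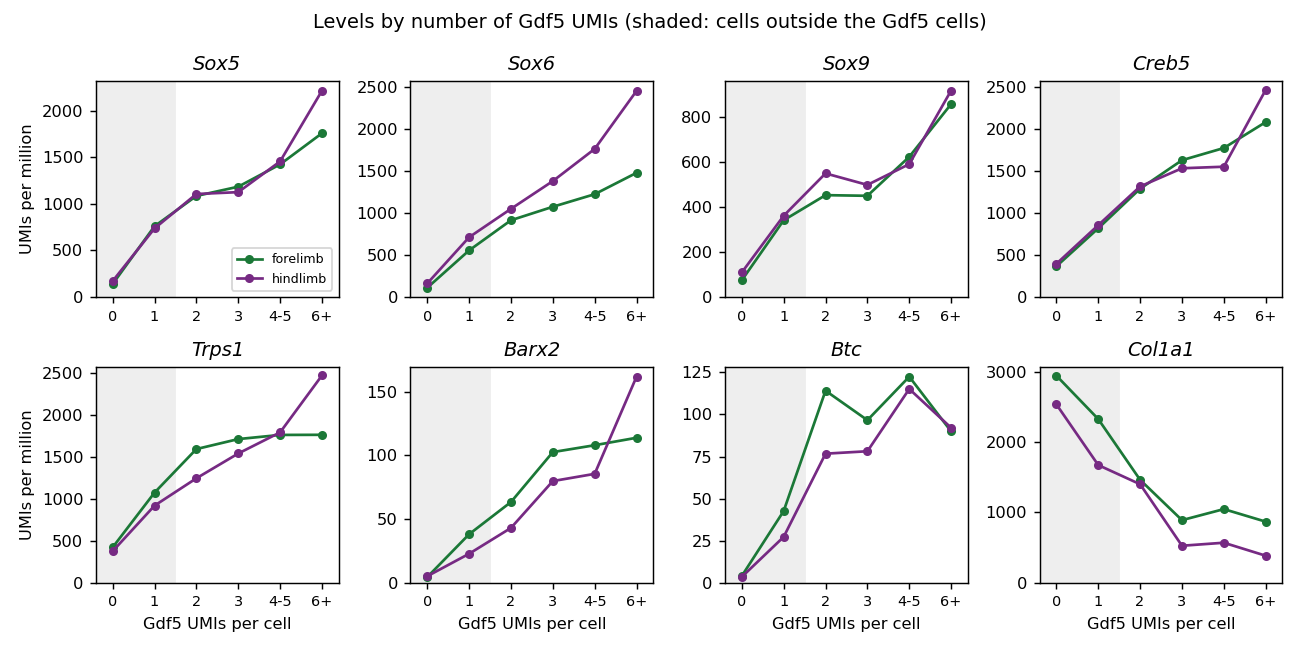
Level (CPM) of 8 genes in kept cells without *Ihh* or *Col10a1*, grouped by their *Gdf5* UMIs (horizontal axis), 1 line per library, with the groups outside the rule shaded. *Sox5* stood at 139.6 and 171 CPM in forelimb and hindlimb cells with no *Gdf5* UMI and at 1757 and 2213 in those with 6 or more, while *Col1a1* was lower in the latter.

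The 561 cells were not uniform, and clustering them by their variable genes gave 7 clusters of 137, 132, 91, 89, 77, 28 and 7 cells. The leading genes, fixed by the clustering itself, are descriptions, and each cluster held cells of both limbs. Cluster 1 (37 forelimb and 100 hindlimb cells) had *Tenm4*, *Nog*, *Pthlh* and *Barx2* among its leading genes. Cluster 2 (70 and 62) was led by *Anxa8* and *Ptprt*, with 88 of its 174 *Ptprt* UMIs in 1 forelimb cell. It included *Btc*, at 307 and 349 CPM against 109 and 87.2 in all *Gdf5* cells. These clusters stood apart in collagen II, with *Col2a1* at 1910.3 and 1682 CPM in the first and 312 and 293 CPM in the second. *Bmp6* stood at 219 and 97.8 CPM in cluster 1 and 312 and 529.6 CPM in cluster 2, and *Prg4* at 5.47 and 0 and 30.5 and 84.5 CPM. Of the 16 forelimb and 42 hindlimb *Prg4* UMIs, 13 and 30 lay in cluster 2, of which 10 and 22 were those of 1 cell each. Cluster 3 (40 and 51) was led by *Pkhd1* and *Schip1*, and cluster 5 (21 and 56) by *Cntnap2* and *Dok6*, with globin genes among its leading 10. In cluster 5 *Sox5* stood at 263 and 376 CPM, against 2124 and 2409 in cluster 1, and *Btc* at 0 and 13.6 CPM. Of its 77 cells 24 carried markers of another type.

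The remaining clusters, like cluster 5 with its globin genes, carried genes of other cells or states. Cluster 4 (30 and 59) was led by the mesenchyme genes *Dcn*, *Crabp1* and *Mfap5* and by cell division genes, and had a median of 9015 UMIs and 14 of the 22 doublet calls. Its *Dcn* level was 791 and 538 CPM and its level of *Top2a*, the topoisomerase gene of dividing cells, 432 and 423 CPM. Cluster 6 (9 and 19) was led by cartilage matrix genes such as *Matn1*, *Cytl1* and *Comp*, and its *Col2a1* level of 6471 and 4405 CPM was near that of the cartilage class, 6644 and 6544 CPM. Cluster 7 (2 and 5) was led by the mast cell genes *Cpa3*, *Cma1* and *Tpsb2*, with a median of 15033 UMIs and 5 doublet calls. The median number of *Gdf5* UMIs was 2 or 3 in each cluster.

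**Figure D5:**
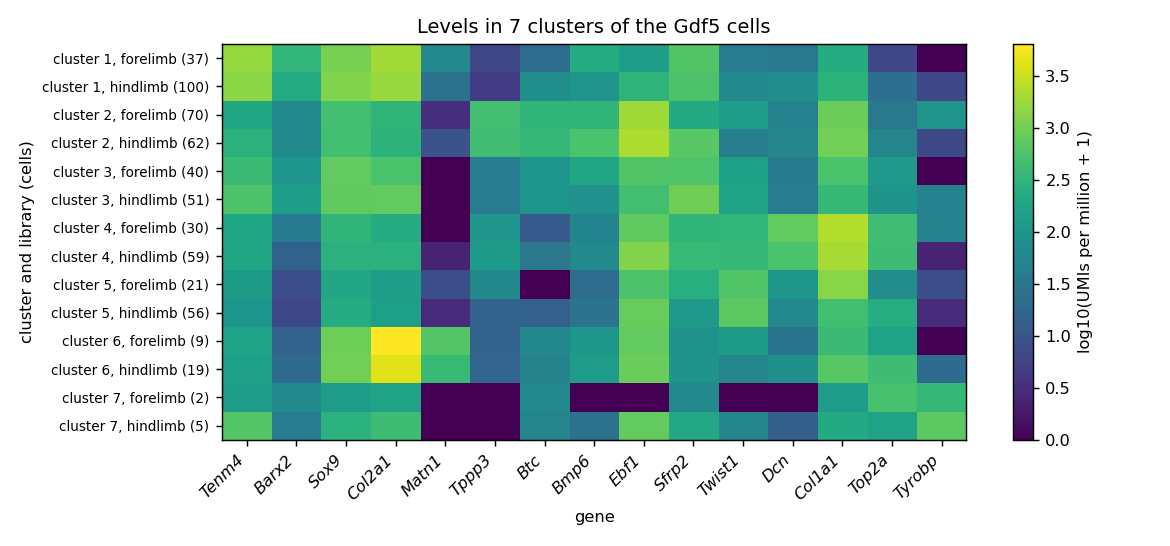
Level of 15 genes (colour, log10 of CPM + 1) in the 7 clusters of *Gdf5* cells, with a row for each cluster and library and a column for each gene. *Col2a1* is high in cluster 1 (1910.3 and 1682 CPM in forelimb and hindlimb) and cluster 6 (6471 and 4405 CPM) and low in cluster 2 (312 and 293 CPM), which is the cluster with most *Btc* (307 and 349 CPM).

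Of 13 genes of cell division 1 was lower than in other limb cells under every setting, *Cdkn1c* (log2 fold-change -1.13, standard error 0.06, edgeR adjusted p = 1.0e-68 and 0.0029 by BH), which encodes a brake on the cell cycle, and none was higher. Over all genes tested 4.83% were called lower and 2.67% higher, so the list's count is near the background. The proliferation marker *Mki67* (-0.23) and *Top2a* (-0.35) did not pass, and the list's median was -0.61 against -0.10 for all genes. Cluster 4, with 89 cells of which 14 were marked as doublets, held much of both genes. It had 121 of 179 forelimb and 200 of 413 hindlimb UMIs of *Mki67*, and 203 of 283 and 321 of 617 of *Top2a*. Of 8 adhesion and gap junction genes tested, *Cdh11* was the one called, higher as given above.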

How the data were processed

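Single-cell suspensions of penis, forelimb and hindlimb were made into droplet libraries and, per the labels' processing notes, counted with Cell Ranger 7.0.0 on mm10. The deposited values are raw counts of UMIs per gene and cell barcode, as the authors' pipeline called cells, without their later filtering or normalization. Whether introns were counted is not given in the sources used here. The study's penis libraries and ChIP-seq data were not used for the comparisons.

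The cell filters followed the limits of the study's methods, read as detected genes per cell, with 9000 for both limbs (9500 for the hindlimb as an alternative). *Gdf5* cells were chosen by the rule given in the opening. The rule, its markers, the 26 gene lists and the comparisons were chosen with earlier results of these data known. The lists of signalling pathways came from general knowledge, the chondrocyte list from the study. Counts were summed per library and class, since cells are not replicates. The sums were tested with the edgeR 4.0.16 quasi-likelihood test (R 4.3.3, limma 3.58.1) with TMM, filterByExpr and the library as a block, and p-values were Benjamini-Hochberg adjusted across every tested gene. In the fit against other cells, 4 sums left 1 residual degree of freedom, and edgeR by default set each gene's spread to a common trend. The settings without the legacy option, with robust estimation, and with both were added after seeing the results. Each standard error was derived from the test, by dividing the size of the log2 fold-change by the root of its F statistic. Named genes were those of the lists, and the called genes with the same direction in both libraries, at least 20 CPM in the higher class of each, and the largest fold-changes (12 higher and 8 lower against other cells, 6 each way against other classes), leaving out unnamed, mitochondrial and sex-linked genes. Between limbs they were up to 6 genes each way with the largest ratio and at least 30 UMIs. Further genes of a cluster or detection value were chosen after seeing the data. On counts simulated for the fit against other cells (20982 genes, 200 changed), edgeR recovered 92% and DESeq2 1.42.0 75.5%. For the fit over classes (15106 genes) they recovered 95% and 88.5%, and for *Hoxa13* against *Hoxa11* cells 88.1% and 49.5%. Of these fits only edgeR on the last made false calls, 2 of them. The simulated spread was fixed, above the dispersion estimated in the first 2 fits (0.00559 and 0.0053) and below that of the last (0.0418). All changed genes had the same size of change, so these shares may not hold for the data. They were drawn from genes above a minimum expected count, so recovery of sparse genes was not measured. Over classes only the contrast with cartilage cells was simulated.

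CPM values were scaled by the summed UMIs of the class, without TMM. They compare classes for 1 gene, not genes with each other. Clusters of *Gdf5* cells were made with scanpy 1.11.5 (1500 variable genes, 20 principal components, resolution 0.6). Python 3.11.15, numpy 2.4.6, scipy 1.17.1 and pandas 2.3.3 were used for shares, exact binomial and Poisson intervals at 95%, thinning to 2000 UMIs and Scrublet (expected doublet rate 0.1), and matplotlib 3.10.9 for figures. Intervals cover counting error only. Coordinates are those of GENCODE M21 on mm10. Left out were comparisons of the penis libraries, where fewer than 20 cells per library met the rule. Some genes are not reported here, and the count of BMP antagonists is left out.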

Additional observations from a re-analysis of the deposited data

Results flagged for a closer look

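There were 3 genes that moved in opposite directions in the limb libraries, each relative to the other cells of its library. The log2 fold-change of *Krt5* was 1.01 in the forelimb and -1.82 in the hindlimb, that of *Krt14* 1.14 and -3.16, and that of *Wnt3* 1.46 and -2.20. *Krt5* and *Krt14* encode keratins of the basal epidermis, and 1 forelimb cell held 36 of the 49 UMIs of *Krt5* and 54 of the 61 of *Krt14*. *Wnt3* had 3 UMIs in forelimb *Gdf5* cells and none in the hindlimb. With 1 library per limb, whether these effects differ was not tested.

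The penis libraries, which entered no comparison, also held *Gdf5*. At least 1 UMI was seen in 20, 23 and 16 cells of the 3 libraries, that is 0.295%, 0.325% and 0.280% of 6788, 7085 and 5708 kept cells. By the limb rule of 2 UMIs there were 1, 1 and 0 cells, too few for a test.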

How the results depend on the processing

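The counts of genes higher and lower than in other limb cells, 557 and 1009, differed between settings of the spread, of the library block and of depth. The higher count fell to 368 without the library block and to 374 with edgeR's legacy option off. It was 406 with that and robust estimation, 410 with cells thinned to 2000 UMIs and 425 with a limit of 1 *Gdf5* UMI. The lower count was 340 with edgeR's legacy option off, 409 with that and robust estimation, 433 with DESeq2, 377 without the library block and 566 with cells thinned to 2000 UMIs. *Ucma* turned to 0.13 with a limit of 1 *Gdf5* UMI, and with *Ihh* and *Col10a1* cells kept *Ibsp* turned to 0.23 and *Panx3* to 0.34. Without the filter on low counts 738 genes were lower than in tendon and 845 lower than in mesenchyme cells. The *Hoxa13* comparison was unstable. Its higher genes numbered 1 with DESeq2, 26 without the filter on low counts and 4 without doublets, and its lower genes 30 without that filter, 1 without the library block, 0 with a limit of 3 *Gdf5* UMIs and 6 without doublets. Shares of *Gdf5* cells in forelimb and hindlimb were 2.72% and 4.29% at 1 UMI, 0.444% and 0.927% at 3, 0.373% and 0.659% thinned to 2000 UMIs, and 0.426% and 0.832% thinned to 4000. Genes over 2-fold higher in the hindlimb and in the forelimb numbered 429 and 396 with at least 10 UMIs, and 64 and 29 with at least 100. The cause of these shifts was not tested.

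Of the 113 called genes of the lists and the naming rule in the comparison with other cells, 20 lost their call with DESeq2, 25 with the legacy option off, 29 without the library block, 30 with a limit of 1 *Gdf5* UMI, 23 with thinned cells and 7 without cells carrying other-type markers. The library block pairs both sums of a library and stood in every fit but the one named without it. Leaving out either limb library leaves no residual degree of freedom and gave fold-changes only. These called genes kept their direction in either library alone, 113 in the comparison with other cells, 76 with cartilage, 92 with tendon, 89 with mesenchyme and 2 with *Hoxa11* cells. For genes picked by the naming rule this was fixed in advance, since it required the same direction in both libraries. Penis alternatives were not run.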
